A study of Drosophila melanogaster with 3 samples.

Results

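Of the 3047 ZIPIC peaks in the deposited list, 2125 lay on the autosomal arms 2L, 2R, 3L and 3R, and 1058 of these shared no base with any of the 2768 listed Pita peaks. These 1058 autosomal ZIPIC peaks without Pita, 49.8% of the ZIPIC peaks on the 4 arms, are described here. Over all sequences 43.9% of the ZIPIC peaks shared bases with a Pita peak, and on the 4 arms 1067 did. The peaks come from chromatin immunoprecipitation and sequencing (ChIP-seq) of untreated S2 cells, a cultured line derived from Drosophila embryos and grown in SFX medium. One library was made with the rabbit antibody against ZIPIC, one with that against Pita and one from input DNA without precipitation, so no value below has a replicate. Precipitates of 1 antibody may have been combined before sequencing to obtain enough DNA. The input library served as control for both lists. Peaks on X, on chromosome 4 and on heterochromatic or unplaced sequences were left out by the rule. A peak is "without Pita" only in the sense that no listed Pita interval touches it. The lists stop at a p of about 1e-04, and weaker Pita signal was not detectable in them. By the study's read counts the Pita library had fewer unique reads than the ZIPIC or the input library. How far this left Pita unlisted at ZIPIC peaks was not tested.

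ZIPIC and Pita are zinc-finger proteins with an N-terminal zinc-finger associated domain, a domain common among Drosophila zinc-finger proteins. Insulator proteins of this kind bind DNA through their zinc fingers and bring cofactors such as CP190 to chromatin. Insulators can block an enhancer from acting on a promoter, or protect a gene from a neighboring silencer. Sites of several known insulator proteins often lie close together, though by the study's account Su(Hw) is mostly not part of such clusters. The peaks described here are those where ZIPIC was listed and Pita was not.

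The ZIPIC peaks without Pita were mostly weak. The lists give for each peak a p-value over input, and strength is given here as −log10 p, which grows with the reads at a peak as well as with enrichment. The 1058 peaks had a median −log10 p of 5.95, with quartiles of 4.65 and 8.54, a lowest value of 4.00 and a highest of 32.7. For the 1067 autosomal ZIPIC peaks that shared bases with a Pita peak the median was 11.8, with quartiles of 6.90 and 21.2. The members were chosen from these same lists, so the difference is given as a description, with no test.

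The study's methods name p under 1e-05 as the limit for calling peaks, but the lists reach beyond it. A p under 1e-05 was reached by 708 of the 1058 peaks without Pita (66.9%). Of all listed ZIPIC peaks 77.6% reached it, and of the 1067 autosomal peaks with Pita 958 (89.8%). At p under 1e-10 there remained 169 peaks without Pita (16.0%), against 35.4% of all listed ZIPIC peaks and 619 autosomal peaks with Pita (58.0%). Only 17 peaks without Pita had p under 1e-20, against 297 with Pita. The classes of strength therefore differed in make-up. When the 2125 autosomal peaks were cut into 10 classes of equal size, peaks without Pita made up 78.9% of the weakest class (95% exact binomial interval 72.8 to 84.2, counting error only). In the fifth class they made up 57.3% (50.3 to 64.0), in the ninth 10.4% (6.62 to 15.3) and in the strongest 2.83% (1.05 to 6.06). Among the 100 strongest autosomal ZIPIC peaks none lacked Pita, which allows a share of up to 3% by a floor of 3 counts and up to 3.62% by the exact binomial interval, and among the 200 strongest 5 did.

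**Figure D1:**
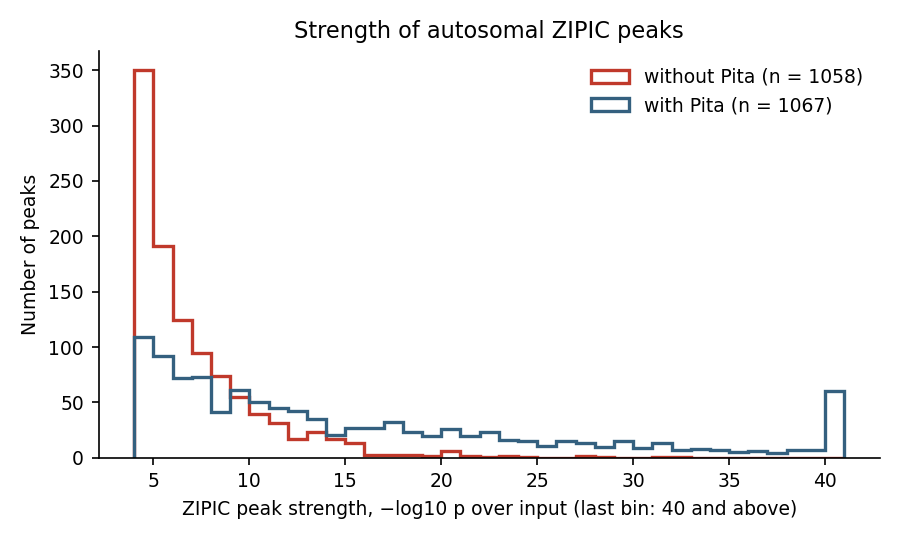
Number of autosomal ZIPIC peaks by strength, given as −log10 p over input in steps of 1, for the 1058 peaks without Pita and the 1067 with Pita, with all values from 40 up in the last bin. Peaks without Pita are crowded near the limit of the list, with a median of 5.95, while peaks with Pita spread to far higher values around a median of 11.8.

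**Figure D2:**
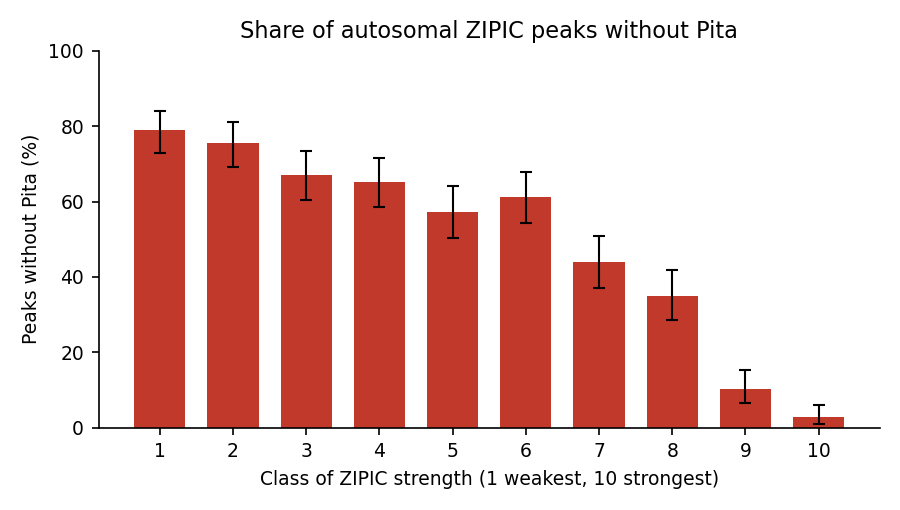
Share of peaks without Pita, in percent, in 10 classes of equal size of the 2125 autosomal ZIPIC peaks ordered by strength, with bars for the 95% exact binomial interval. The share is 78.9% in the weakest class and 2.83% in the strongest.

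The strongest ZIPIC peak without Pita lay on 3L from 4825672 to 4825894 (dm3, counted from 1). It was 223 bp wide, had a −log10 p of 32.7 and held place 161 of the whole ZIPIC list. Its nearest Pita peak, itself a site that ZIPIC shared, was 14187 bp away. The second was the 3R interval 8251542 to 8252011, with a −log10 p of 31.7, and 2930 bp from a Pita peak. On 2L the peak from 6455162 to 6455591 (−log10 p 28.4) lay only 238 bp from a Pita peak of −log10 p 7.98. These leading peaks thus differed widely in their distance from Pita.

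Some of the strong peaks stood well apart from Pita. The peak on 3L from 19545324 to 19545564 (−log10 p 27.7) was 35439 bp from the nearest Pita peak and 46114 bp from the nearest other ZIPIC peak. That on 2L from 2585360 to 2585590 (−log10 p 27.2) was 91968 bp from Pita and 91980 bp from other ZIPIC peaks, so it was a single, narrow site of 231 bp with neither factor nearby. On 3R from 18576474 to 18576667 (−log10 p 23.5) the nearest Pita peak was 43152 bp away, but another ZIPIC peak lay at 3069 bp. A peak near the centromere-side end of 2L, from 22024373 to 22024794 (−log10 p 22.3), was 154655 bp from Pita.

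Others had Pita within a few kilobases. The peak on 2R from 18935878 to 18936473 (−log10 p 24.8) lay 1813 bp from a Pita peak, and the one on 2L from 12003074 to 12004206 (−log10 p 23.4) lay 3183 bp from one. Both of these Pita peaks were weak, with −log10 p of 4.43 and 4.45, and both shared bases with another ZIPIC peak. Also on 2R, from 20655166 to 20655846 (−log10 p 21.1), the gap was 4151 bp. On 3R from 11089032 to 11089353 (−log10 p 20.6) it was 1917 bp, to a Pita peak of −log10 p 22.6 that ZIPIC shared. The remaining 4 of the 15 strongest had −log10 p between 20.5 and 21.1. They were 18708051 to 18708656 and 19790960 to 19791872 on 2L, 16106285 to 16107253 on 3L and 15384303 to 15384501 on 2R, at 23734, 25359, 7353 and 27589 bp from Pita in that order. Of these 15 peaks, 9 were under 500 bp wide and 8 were over 10 kb from Pita.

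On both sides of the border of the rule there were weak and strong ZIPIC peaks. The member closest to Pita lay on 3L from 13660097 to 13660851, 45 bp from a Pita peak of −log10 p 28.5, and had a −log10 p of 4.51. Next came 2R from 5579458 to 5579944 at 105 bp (−log10 p 15.4), 3R from 27573767 to 27574355 at 131 bp (9.12), 2L from 8240098 to 8240235 at 158 bp (8.79) and 2R from 2758804 to 2759960 at 178 bp (8.02). These 5 were all the members under 200 bp from Pita, 0.473% of the 1058. Their nearest Pita peaks had −log10 p from 5.61 to 51.8, and those that touched the 5 peaks just outside had 4.01 to 7.08. The peaks just outside were picked by fewest shared bases, which favors short Pita intervals. The ranges therefore cannot be set against each other. Just outside the rule, the autosomal ZIPIC peak that shared the fewest bases lay on 2L from 21309171 to 21310034. It shared 30 bp with Pita and had a −log10 p of 6.01. The intervals 9762930 to 9763208 on 2L and 19766292 to 19766533 on 2R shared 65 and 81 bp, with −log10 p of 6.64 and 4.19. Further ones, 17008700 to 17009217 on 3L (−log10 p 15.3) and 10740090 to 10740222 on 2R (14.8), shared 88 and 89 bp with Pita peaks of −log10 p 4.01 and 4.25. Both of these Pita peaks lay wholly within the ZIPIC peak.

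Most ZIPIC peaks without Pita were kilobases away from Pita. The gap from the end of a peak to the nearest Pita peak had a median of 10717 bp, with quartiles of 3394 and 25482 bp. Within 1 kb of a Pita peak lay 132 of the 1058 peaks (12.5%, 95% exact binomial interval 10.5 to 14.6), and within 10 kb lay 510 (48.2%, interval 45.2 to 51.3). A gap of 50 kb or more was found for 102 peaks and one of 100 kb or more for 31. For comparison, the 1167 autosomal Pita peaks without ZIPIC had a median gap of 16182 bp to the nearest ZIPIC peak, and 8.48% of them (6.95 to 10.2) lay within 1 kb of one. Strength changed little with the gap. The median −log10 p was 6.38 for the 78 peaks under 500 bp from Pita, 5.80 for the 54 at 500 to 1000 bp, 6.29 for the 378 peaks at 1 to 10 kb, 5.86 for the 446 at 10 to 50 kb and 5.40 for the 102 beyond. Across the 1058 peaks the Spearman rho of gap and strength was -0.0871, a description over peaks of 1 library.

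**Figure D3:**
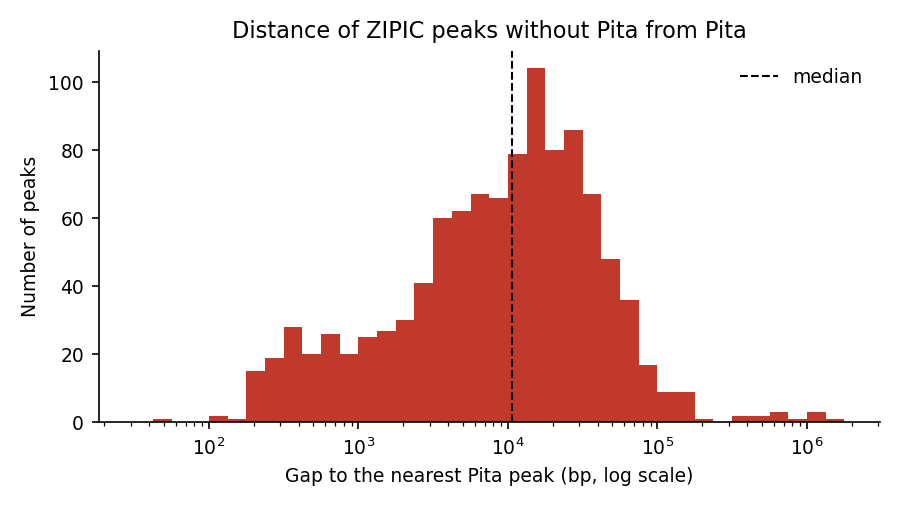
Number of the 1058 ZIPIC peaks without Pita by the gap to the nearest Pita peak in bp on a log axis, with the median of 10717 bp as a dashed line. The quartiles of the gap are 3394 and 25482 bp, 132 peaks form a flatter stretch under 1 kb, and a few peaks lie over 500 kb away.

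Peaks close to Pita were mostly neighbors of a site where both proteins were listed. For 95 of the 132 ZIPIC peaks under 1 kb from Pita (72.0%, interval 63.5 to 79.4), the nearest Pita peak itself shared bases with another ZIPIC peak. That held for 239 of 378 peaks at 1 to 10 kb (63.2%), 207 of 446 at 10 to 50 kb (46.4%) and 33 of 102 farther away (32.4%). Of all 2245 autosomal Pita peaks, 48.0% shared bases with a ZIPIC peak. The lists give no summits and no coverage, so a separate site and the flank of a broader ZIPIC signal cannot be told apart in them.

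In their distance from other ZIPIC peaks, the peaks without Pita were close to those with Pita. The nearest other ZIPIC peak was a median of 7604 bp away, against 6815 bp for ZIPIC peaks with Pita. It lay within 2 kb for 286 of the 1058 peaks (27.0%, interval 24.4 to 29.8) and for 29.1% of the peaks with Pita (26.3 to 31.9). For 123 of the 286 this nearest ZIPIC peak had Pita. Joining peaks without Pita that lay under 2 kb from each other left 879 alone, 71 pairs, 9 runs of 3, 1 run of 4 and 1 run of 6. The run of 6 lay on 3L from 14748037 to 14755170, a stretch of 7134 bp. Its peaks had −log10 p of 13.6, 12.3, 4.80, 4.51, 7.12 and 9.37 from left to right, so the ends were stronger than the middle, and all were between 39903 and 46204 bp from Pita. The run of 4, also on 3L, spanned 3815 bp from 10730020 to 10733834, with −log10 p of 12.5, 6.74, 9.68 and 9.01 and gaps to Pita of 17189 to 20317 bp. These were stretches with several ZIPIC peaks and no Pita peak within them.

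Among the runs of 3, the one with the strongest peak lay on 2L from 12003074 to 12006626 and began with the peak of −log10 p 23.4 named above, followed by peaks of 6.24 and 4.02. A run on 3R from 12060847 to 12062909 had −log10 p of 15.4, 11.1 and 5.65, and one on 2L from 6047872 to 6050873 had 11.1, 7.43 and 4.11. Whether such neighboring calls are separate sites or pieces of 1 broad signal was not tested.

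Under the overlap rule the peaks without Pita were somewhat narrower than those with Pita, though the quartile ranges overlapped widely. A wider ZIPIC interval can touch a Pita interval more readily, and the part of this in the difference was not tested. When only middles within 100 bp counted as shared, the members had a median width of 418 bp and 10.4% were over 1000 bp. The narrower width of members was thus not kept under that rule. Their median width was 342 bp and their quartiles were 187 and 572 bp, against 399 bp (208 and 665 bp) for autosomal ZIPIC peaks with Pita and 239 bp for autosomal Pita peaks without ZIPIC. Widths under 500 bp were found for 741 of the 1058 peaks (70.0%, interval 67.2 to 72.8), against 61.5% of those with Pita (58.5 to 64.4). Widths over 1000 bp were found for 61 (5.77%, interval 4.44 to 7.34), against 102 of the 1067 with Pita (9.56%, interval 7.86 to 11.5). Width had almost no relation to strength. The Spearman rho was -0.0198 over the 1058 peaks without Pita and 0.159 over the 1067 with Pita. Within the 10 classes of strength, the median width of peaks without Pita stayed between 297.5 and 388 bp.

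**Figure D4:**
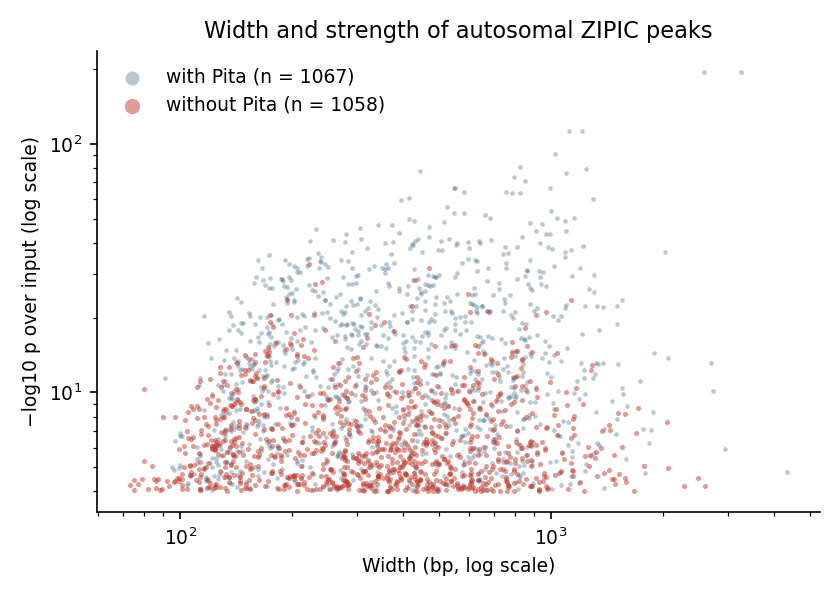
Strength as −log10 p over input against width in bp, both on log axes, with one point for each autosomal ZIPIC peak, 1058 without Pita and 1067 with Pita. Peaks without Pita fill the lower part of the plot at all widths, and the highest points belong to peaks with Pita.

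Peaks over 1000 bp were mostly weak, like the members as a whole. Of these 61, 6 had p under 1e-10 (9.84%, interval 3.70 to 20.2), an interval that holds the 16.0% of all 1058, and their median −log10 p was 5.63. The 8 widest lay between 4.20 and 8.68. The widest, of 2600 bp on 3L from 24116909 to 24119508, had a −log10 p of 4.20 and was the last listed interval of its arm. The next on 3L ran from 5803128 to 5805624 (2497 bp, −log10 p 4.54) and from 16935756 to 16938033 (2278 bp, 4.20). The first of these was 443 bp from a Pita peak of −log10 p 32.5. On 2R the widest ran from 9337449 to 9339512 (2064 bp, −log10 p 4.99), from 7362693 to 7364743 (2051 bp, 7.63) and from 871717 to 873495 (1779 bp, 5.08). A peak on 3L from 15612640 to 15614360 (1721 bp) had a −log10 p of 8.68, the highest of these 8, and one on 2L from 13165434 to 13167132 (1699 bp) had 6.84.

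The arms carried similar shares. Peaks without Pita were 219 of 439 ZIPIC peaks on 2L (49.9%, interval 45.1 to 54.7), 278 of 546 on 2R (50.9%, 46.6 to 55.2), 287 of 544 on 3L (52.8%, 48.5 to 57.0) and 274 of 596 on 3R (46.0%, 41.9 to 50.1), with overlapping intervals. Counted over each arm as far as its outermost listed peak, they came to 13.2 per Mb on 2R, 11.9 on 3L, 9.84 on 3R and 9.68 on 2L. All ZIPIC peaks of these arms had the same order, from 25.8 per Mb on 2R to 19.4 on 2L. The median −log10 p lay between 5.74 on 3L and 6.30 on 3R. The median gap to Pita was shortest on 2R, at 7476 bp (95% interval of the median from order statistics 6259 to 9695), and longest on 3R, at 13541 bp (11435 to 15702). Pita peaks were also densest on 2R, at 26.7 per Mb against 21.5 to 23.6 on the other arms, and the part of this density in the shorter gaps was not tested.

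Toward the centromere the peaks without Pita were wider and farther from Pita by their medians. They were fewer on 3 of the 4 arms, though on 2L only slightly, at 8.5 against 9.79 per Mb. The proximal 2 Mb were counted back from the last listed peak on 2L and 3L, and from the first base on 2R and 3R. Sequence of 2L or 3L beyond that peak was left out, so the arms were not measured alike. These stretches, where euchromatin passes into pericentromeric heterochromatin, held 60 of the 1058 peaks, or 7.5 per Mb against 11.4 per Mb on the rest. Among members with p under 1e-10 the densities were 1.62 and 1.78 per Mb. The proximal value rests on few peaks, too few to tell whether the difference was smaller among strong peaks. ZIPIC peaks with Pita came to 6 per Mb there and 11.6 on the rest, and Pita peaks to 13.4 and 24.4 per Mb. Peaks without Pita were 55.6% of the proximal ZIPIC peaks (interval 45.7 to 65.1), an interval that holds the 49.5% on the rest. The 60 peaks had a median width of 606.5 bp (95% interval of the median 399 to 764), against 336.5 bp (314 to 360) for the other 998. By arm the proximal medians were 399 bp on 2L, 1446 bp on 2R (9 peaks), 1019 bp on 3L and 431 bp on 3R. Only on 3L did the interval (635 to 1282) lie apart from that of all members of the arm (342 to 433). ZIPIC peaks with Pita in the same stretches, 48 in number, had a median of 499.5 bp (320 to 742), against 394 bp (359 to 421) on the rest of the arms, where the intervals overlap. On the assembled heterochromatic sequences outside the arms, ZIPIC peaks had a median of 837.5 bp. The proximal peaks without Pita had a median −log10 p of 5.18 (4.74 to 6.82) and those elsewhere 5.96 (5.79 to 6.18), and these intervals overlap.

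**Figure D5:**
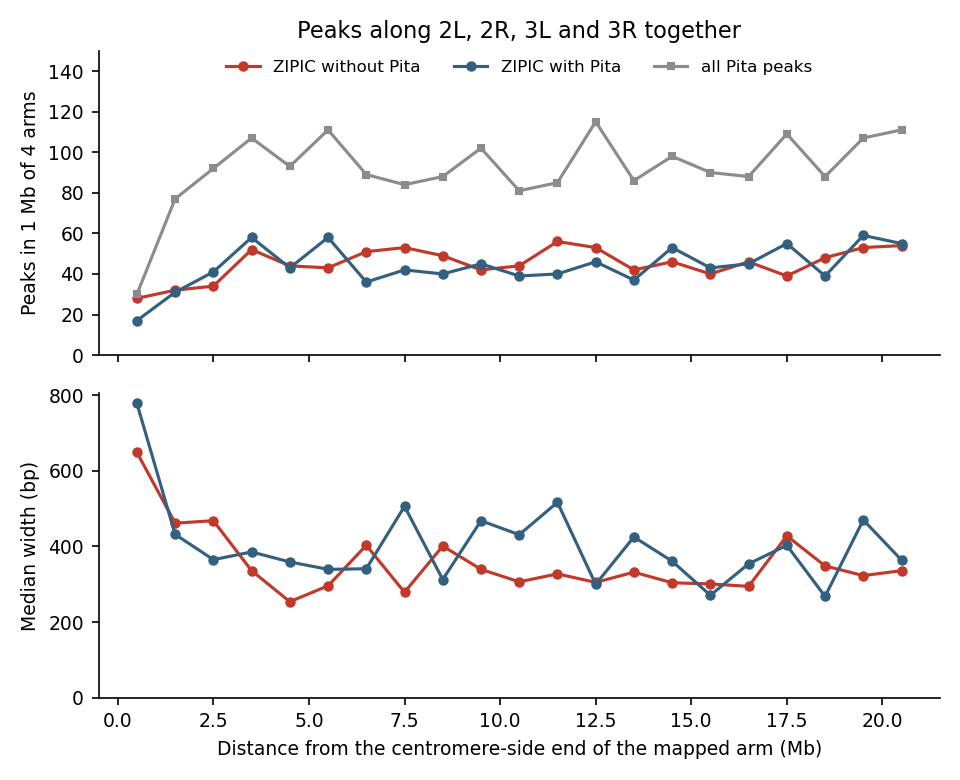
Number of peaks in each 1 Mb of the 4 arms together (upper panel) and median width in bp (lower panel) against the distance in Mb from the centromere-side end of the mapped arm, for ZIPIC peaks without Pita, ZIPIC peaks with Pita and, in the upper panel, all autosomal Pita peaks. Only distances that all 4 arms reach are drawn. Among these the first Mb holds the lowest number of each, 28 ZIPIC peaks without Pita, 17 with Pita and 30 Pita peaks. It also has the widest medians, 648.5 bp for ZIPIC peaks without Pita and 778 bp for those with Pita.

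The arms differed in this. The first 2 Mb of 2R held 9 ZIPIC peaks, and 0 of these 9 shared bases with any of the 5 Pita peaks there. The share without Pita was thus 100% (interval 66.4 to 100, from 9 peaks), against 50.1% on the rest of 2R (45.8 to 54.4). No Pita peak was listed before 1580730, and 7 of the 9 ZIPIC peaks lay in that stretch, where they could not share bases with one. The outermost, from 75657 to 75863, was narrow (207 bp) and fairly strong (−log10 p 14.0) and was 1504866 bp from Pita, the largest gap of all. It was followed by peaks from 388575 to 390062 (1488 bp, −log10 p 4.30), from 431685 to 432540 (856 bp, 4.47), from 820012 to 821687 (1676 bp, 4.03) and from 835115 to 836643 (1529 bp, 4.72), all wide and near the limit of the list. On 3L no Pita peak was listed after 22927607, and 7 ZIPIC peaks lay beyond it, between 625 and 2600 bp wide. The narrowest of them, from 23251357 to 23251981, had a −log10 p of 15.5. On 2L the last peak of the arm, from 22629836 to 22630034, was 199 bp wide with a −log10 p of 15.5 and lay 449894 bp from Pita.

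On 3R the proximal stretch was not thinner, with 21 peaks without Pita (10.5 per Mb against 9.79 on the rest), 28 with Pita and 54 Pita peaks. All 9 peaks that lay over 500 kb from Pita were in the proximal stretches of 2R and 3L. Of the 31 over 100 kb from Pita, 19 were proximal, none of them on 3R, where the largest proximal gap was 83837 bp. Of the 61 peaks over 1000 bp wide, 17 were proximal. The number of reads that could be placed unambiguously in such sequence, the copy number of the arms in S2 cells and the depth at each peak are not in these lists, and their part in the counts was not tested.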

How the data were processed

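Chromatin of S2 cells was precipitated with antibodies against Pita or ZIPIC. Each precipitate gave 1 sequencing library, and input DNA gave a further 1. According to the methods, reads were aligned to dm3 with Bowtie, reads that were not unique or mapped to several places were dropped, and PeakRanger and MACS then called peaks over the input reads. FastQC, SAMtools and a second build, hg19, appear in the submitters' processing notes. For the aligner and peak callers no version is given in the sources used here. Per peak, the authors' deposited lists hold the interval, an unadjusted p-value over input and an FDR. The entries are named after PeakRanger. They hold no reads, so the depth at each peak is unknown. For whole libraries the study's supplement gives read counts, with fewer unique reads for Pita than for ZIPIC or input.

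Starts were read as 0-based and are printed from 1. A ZIPIC peak on 2L, 2R, 3L or 3R was a member if it shared no base with any Pita peak. Strength is −log10 p. No member had p listed as 0. The gap is the distance between the nearest ends. Shares have exact binomial (Clopper-Pearson) intervals and medians have exact order-statistic intervals, both at 95% and for counting error only. Peaks of 1 library are not replicates, and both lists chose the members, so no test was made. Gap and overlap counting was tested on simulated intervals. Alternatives changed the overlap, the thresholds, the reading of starts and the arms.

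Named peaks are the 15 strongest members, the 8 widest, the 5 with the smallest and the 5 with the largest gap to Pita, the 5 just outside the rule and the 5 runs with most members. Other peaks near the centromere-side ends were named after their values were seen. The members, this rule and all classes were chosen with earlier results of these data known. Gene starts, gene lists, motifs and sequences need a genome and annotation of the dm3 build and were not analysed here. Scripts ran under Python 3.11.15 with SciPy 1.17.1, pandas 2.3.3, NumPy 2.4.6 and, for the plots, matplotlib 3.10.9.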

Additional observations from a re-analysis of the deposited data

How the results depend on the processing

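No paired analysis was possible because there was 1 library per protein and no replicate. Of 162 recomputed values, 131 stayed within counting error or within 1.5 times the count, among them those that read the starts as 1-based, required 50% of the shorter peak, or took any Pita peak within 200 bp as shared. When only peaks whose middles lay within 100 bp counted as shared, there were 1399 members, 65.8% of autosomal ZIPIC peaks. These included ZIPIC peaks that touched a Pita peak, counted as having no gap. By construction this brought the members closer to Pita. The median gap was 5175 bp, 33.8% lay within 1 kb and 60.8% within 10 kb of Pita. Under this rule the members had a median −log10 p of 6.46 and a median width of 418 bp, and 10.4% were wider than 1000 bp. With ZIPIC peaks of p under 1e-05 the share was 42.5%, the median −log10 p 7.40, the proximal density 4.25 per Mb, and 143 members lay on 2L and 180 on 3L. With p under 1e-10 there were 169 members, 21.4% of the peaks, with a median −log10 p of 12.6 and a median gap of 8299 bp, 54.4% lay within 10 kb of Pita, 14.2% within 2 kb of another ZIPIC peak, and 3.55% were wider than 1000 bp. The arms 2L, 2R, 3L and 3R then held 38, 39, 37 and 55. The density was 1.62 per Mb in the proximal stretches, from few peaks, and 1.78 on the rest. Fewer peaks enter under these thresholds by construction. With only Pita peaks of p under 1e-05 the share was 55.2%, the median gap 12610.5 bp, and 44.3% lay within 10 kb. Without arm 2R the median gap was 12367.5 bp and 45.0% lay within 10 kb. Without the proximal 2 Mb of each arm, an alternative added after the data were seen, 4.41% were wider than 1000 bp. Apart from the thresholds and the gaps under the 100 bp rule, the cause was not tested. Counts per arm were not recomputed with an arm left out.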
